A study of Mus musculus with 12 samples.

Results

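The MYC, MAX and MXD network was read at the RNA level in mouse liver and liver tumors through 10 genes chosen by their symbols: Myc, Mycn, Max, Mnt, Mxd1, Mxi1, Mxd3, Mxd4, Mlx and Mlxipl. All 10 were found among the 17007 genes listed, and all 10 were among the 14397 genes that passed the filter on low values. MYC and MYCN bind DNA only as a dimer with MAX, at E boxes whose core letters are CACGTG, and raise the transcription of genes for ribosome assembly, nucleotide synthesis and cell division. MNT and the MXD proteins (MXD1, MXI1, MXD3 and MXD4) compete for MAX and bring SIN3 corepressors to the same sites. MLX is a second common partner, which pairs with the glucose-responsive factors ChREBP (encoded by Mlxipl) and MondoA, and in liver ChREBP drives glycolytic and lipogenic genes. MYC is also one of the oncogenes most often amplified in human hepatocellular carcinoma (HCC).

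The 12 libraries came from 4 groups. Normal livers were taken from wild-type C57BL/6 mice without treatment, so they differed from the tumor hosts in genotype, and no injected control without oncogenes was included. The tumors were c-MYC/MCL1/RictorKO Tsc2KO HCCs, made in mice with floxed Rictor and Tsc2 alleles (Rictor fl/fl Tsc2 fl/fl) by hydrodynamic tail vein injection of plasmids for c-MYC, MCL1, Cre and Sleeping Beauty transposase, so every tumor group shared the introduced c-MYC and MCL1 and the loss of Rictor and Tsc2. The EF1α promoter drove the introduced c-MYC, and hydrodynamic injection reaches mainly hepatocytes. Tumor-bearing mice received vehicle, MLN0128 (an inhibitor of the mTOR kinase in both mTORC1 and mTORC2) or everolimus (an mTORC1 inhibitor related to rapamycin). By the sample labels the drugs were given by gavage at 1 mg/kg per day, 6 days a week over 3 weeks, from 6 days after injection, and the mice were sacrificed 3.7 weeks after injection. The study's methods give this same course, while its results text gives the sequenced tumors a course of days rather than weeks. The length of treatment behind the drug comparisons is therefore uncertain. Each group held 3 mice. No source used here says whether reads from the introduced c-MYC were counted on the mouse gene, so Myc below is the value listed for the mouse gene only.

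Levels are in FPKM, that is fragments per kilobase of transcript scaled by library, and because they are per length they can be compared between genes. Recovered reads numbered 17167629 to 25188266 per library. The 11 hepatocyte markers summed to 88791 to 108423 FPKM in normal liver and 4393.5 to 6642.3 FPKM in vehicle tumors, and 12 proliferation markers to 25.7 to 32.7 and 259.0 to 301.0 FPKM. These are bulk samples, in which fewer cells of a type and less RNA per cell cannot be told apart. Listed levels of Rictor were 1.65 to 2.57 FPKM in normal liver and 1.05 to 1.5 FPKM in vehicle tumors. With MLN0128 they were 1.65 to 2.21 FPKM and with everolimus 1.58 to 1.93 FPKM, which overlapped normal liver. Those of Tsc2 were 4.5 to 5.32, 2.01 to 2.31, 2.81 to 3.96 and 2.78 to 2.87 FPKM in the same order. These levels are in the scaling as deposited, and whole-gene values do not read the deleted exons separately. The loss of both genes is the study's description and is not read from these values. MLN0128 replicates 1 and 2 held Xist at 155.0 FPKM or more and 0 reads on 4 Y-linked genes, whereas the other 10 libraries had Xist at 0.0699 FPKM or less. Results with MLN0128 that passed a test, and ratios, are therefore also given without both, except where stated. In the text, "past 1.5-fold" means that limma's treat test found a change of more than 1.5-fold, and the moderated test is limma's test against no change. Both were adjusted over all 14397 genes and called at 0.05, and log2 fold changes are on the log2(FPKM + 1) scale, which understates the change of low genes.

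Promoters of the network were read from RefSeq windows on GRCm38.p6 that run from 250 bases before to 50 bases after the annotated start. The table held 12 windows for 9 of the 10 members, and no window for Myc. The letters CACGTG, which read the same on both strands, occurred in 5 of the 12 windows, those of Max, Mnt, Mxd4, Mlx and the upstream start of Mlxipl. Over all 32851 windows 7.20% held these letters, and among the 14253 windows with at least 55% G and C, a range that covers all members (55% to 76.7%), 10.2% did. The letters CACGCG, searched on both strands, occurred in 0 of the 12 member windows and in 9.30% of all. A match is a description of the letters and not a measured site. The stretches around each match are shown 5′ to 3′ with CACGTG in capitals, because these are the E box letters that MYC, MXD and MLX dimers share. The motif starts at position -3 relative to the annotated start in Max, -123 in Mnt, -219 in Mxd4, -40 in Mlx and -98 in Mlxipl. The 250 bases before the Mxd1 start, which hold no CACGTG or CACGCG, are shown last because the Mxd1 transcript differed between vehicle tumors and each of the other groups.
Max (chr12:76962229-76962301, minus strand): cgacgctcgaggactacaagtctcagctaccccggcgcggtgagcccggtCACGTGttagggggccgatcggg
Mnt (chr11:74830751-74830856, plus strand): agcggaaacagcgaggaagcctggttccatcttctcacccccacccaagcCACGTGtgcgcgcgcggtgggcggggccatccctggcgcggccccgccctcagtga
Mxd4 (chr5:34187874-34187960, minus strand): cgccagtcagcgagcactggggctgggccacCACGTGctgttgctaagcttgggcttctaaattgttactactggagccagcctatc
Mlx (chr11:101087200-101087305, plus strand): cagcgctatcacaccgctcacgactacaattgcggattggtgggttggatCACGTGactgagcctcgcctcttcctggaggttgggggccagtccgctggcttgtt
Mlxipl (chr5:135089742-135089847, plus strand): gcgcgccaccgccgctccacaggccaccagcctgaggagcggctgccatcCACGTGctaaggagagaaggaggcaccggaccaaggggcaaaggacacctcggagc
Mxd1 (chr6:86669160-86669409, minus strand): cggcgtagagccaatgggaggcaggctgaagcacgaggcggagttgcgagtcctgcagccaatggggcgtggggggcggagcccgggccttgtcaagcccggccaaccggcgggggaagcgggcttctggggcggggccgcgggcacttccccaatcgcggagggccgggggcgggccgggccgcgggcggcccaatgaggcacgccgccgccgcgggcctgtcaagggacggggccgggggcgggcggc

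In vehicle tumors, listed Myc was lower than in normal liver, and Max, Mnt and Mxd1 were higher, each past 1.5-fold. Mycn was also called lower, a call that the filter on low values settled in advance. With Mycn, that is 5 of 10 members, beside 32.7% of all genes tested, with 3 of 10 higher (15.9% of all genes) and 2 of 10 lower (16.9%). By the moderated test 10 of 10 members differed beside 69% of all genes, 5 higher (36% of all genes) and 5 lower (33%). The libraries of normal liver and vehicle tumors did not overlap for 10 of 10 members beside 74.1% of all genes, again 5 higher (39%) and 5 lower (35.1%). These counts include Mycn, which reached 0.5 FPKM in 3 normal livers and 0 of 9 tumors, and Mxd3, which reached it in 0 normal livers and 8 tumors. Both passed the filter on low values only through the side where they are high and so had to differ. Of the 8 members expressed on both sides, 4 differed past 1.5-fold (3 higher, Myc lower), and 8 differed by the moderated test and had libraries apart (4 higher and 4 lower each). Without normal liver replicate 1, 2 or 3, the members past 1.5-fold numbered 3, 2 and 3. Over all genes, 2282 were higher and 2428 lower past 1.5-fold. That split follows the scaling between libraries, since with libraries set to the same FPKM sum it was 6154 higher and 917 lower, with plain library totals 5195 and 1124, and the median log2 change of all genes moved from 0.06 to 0.80 and 0.62. The members moved with it: under each of these scalings 4 were higher past 1.5-fold (Max, Mnt, Mxd1 and Mxi1) and 0 were lower, beside 42.7% of all genes higher and 6.37% lower with the same FPKM sum and 36.1% and 7.81% with plain totals.

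Myc, which encodes the transcription factor c-MYC, was listed at 12.2, 4.01 and 6.42 FPKM in normal liver (mean 7.54 ± 4.21, SD, n = 3). It was at 0.807, 1.62 and 1.33 FPKM in vehicle tumors (1.25 ± 0.412). All 3 normal livers exceeded all 3 tumors, although the normal livers themselves differed by 3-fold. The log2 fold change was -1.83 (SE 0.35, 95% interval -2.59 to -1.06, treat adjusted p = 0.00818), which kept its direction in 23 of 23 alternatives and stayed past 1.5-fold in 21, all but the same FPKM sum (adjusted p = 0.322) and plain totals (adjusted p = 0.174). With MLN0128, Myc was at 0.907, 1.38 and 1.15 FPKM, and with everolimus at 0.799, 3.01 and 0.990 FPKM. All 3 MLN0128 libraries lay within the range of the vehicle tumors, while everolimus replicate 2 lay above it and replicate 1 just below it. Neither drug moved Myc past a test (log2 fold change -0.06, interval -0.82 to 0.70, with MLN0128 and 0.13, interval -0.64 to 0.89, with everolimus), and both signs turned when single libraries were left out (to 0.06 without vehicle replicate 2 for MLN0128, and to -0.23 without everolimus replicate 2).

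Mycn encodes N-MYC, the paralog best known from neural tumors. It was listed at 0.929, 2.5 and 1.05 FPKM in normal liver and at 0.0708, 0.0288 and 0.0261 FPKM in vehicle tumors, where it rested on 5, 2 and 2 reads. The summed reads, 160 in normal liver and 9 in vehicle tumors, give a 36.3-fold higher level in normal liver (exact interval 18.6 to 80.7, for counting error only). Its call past 1.5-fold is not read as a result, since Mycn passed the filter on low values only through normal liver. All 3 MLN0128 libraries (0.0962, 0.171 and 0.165 FPKM) and all 3 everolimus libraries (0.193, 0.261 and 0.0853 FPKM) lay above the vehicle tumors. Their 34 and 45 summed reads correspond to ratios over vehicle of 3.38 (1.59 to 8.01) and 4.44 (2.15 to 10.3), again for counting error only. The fitted changes of 0.13 and 0.18 passed no test. The drug-treated levels remained below every normal liver.

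Max encodes the obligate partner of MYC and MYCN, which is also a partner of MNT and the MXD proteins. Its transcript had 8.61, 10.2 and 6.79 FPKM in normal liver. Vehicle tumors had 18.4, 19.1 and 21.3 FPKM, and even the lowest of them stood above the highest normal liver. The log2 fold change was 1.12 (SE 0.16, 95% interval 0.78 to 1.47, treat adjusted p = 0.0106), and it stayed past 1.5-fold in 23 of 23 alternatives. Levels were 29.4, 25.4 and 21.6 FPKM with MLN0128 and 27.5, 21.0 and 22.4 FPKM with everolimus. Every MLN0128 library lay above every vehicle library, but the change of 0.35 did not pass the moderated test (adjusted p = 0.111), nor did that of 0.25 with everolimus (adjusted p = 0.342).

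**Figure D1:**
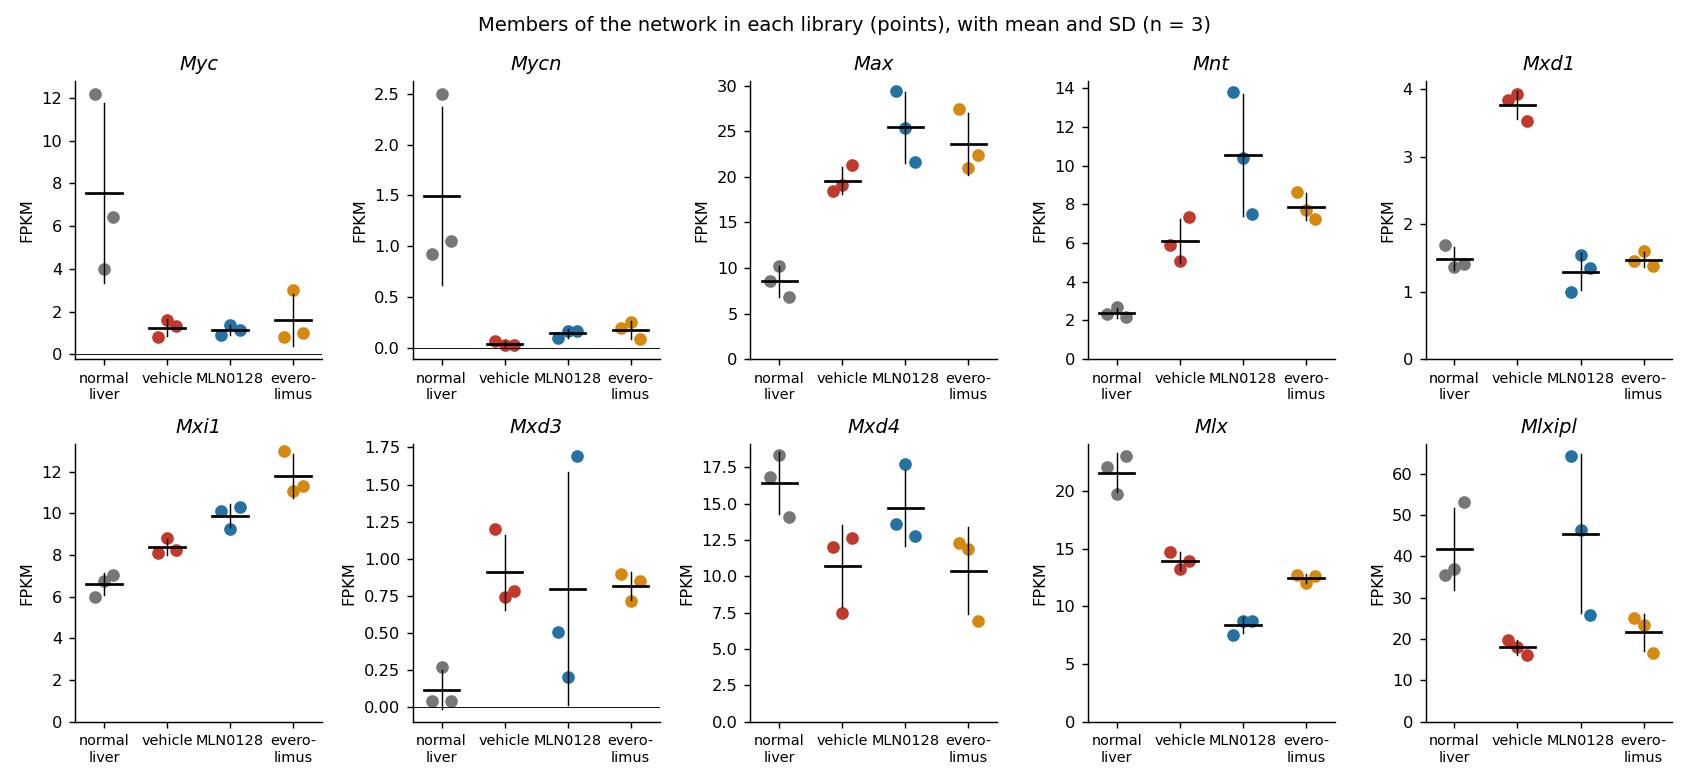
FPKM of the 10 members (vertical axes, 1 panel per gene, linear scale) in the 12 libraries, grouped as normal liver and tumors given vehicle, MLN0128 or everolimus; points are libraries, horizontal bars means and vertical lines 1 SD (n = 3). Mxd1 is at 3.53 to 3.93 FPKM in vehicle tumors and at 0.996 to 1.69 FPKM in every other library, and Mlx is at 13.2 to 14.7 FPKM with vehicle and at 7.54 to 8.76 FPKM with MLN0128.

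Mnt encodes the most widely expressed MAX-bound repressor. Normal livers had 2.34, 2.67 and 2.17 FPKM and vehicle tumors 5.92, 5.06 and 7.33 FPKM, so that the lowest tumor was above the highest normal liver. Its log2 fold change was 1.06 (SE 0.18, interval 0.65 to 1.46, treat adjusted p = 0.0408), and it stayed past the moderated test in 23 of 23 alternatives. It missed 1.5-fold in 7 of them, which include leaving out any 1 normal liver or vehicle replicate 1 or 3 (adjusted p up to 0.149). MLN0128 libraries were at 13.8, 10.4 and 7.51 FPKM, all above vehicle, and the change of 0.68 passed the moderated test (adjusted p = 0.0160) but not the 1.5-fold test. That difference rested on replicates 1 and 2: without both, it was 0.27 (adjusted p = 0.380). With everolimus Mnt was at 8.64, 7.73 and 7.27 FPKM, which overlapped vehicle (0.33, adjusted p = 0.277).

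Mxd1 differed by the moderated test in each comparison of vehicle tumors with another group. MXD1, first named MAD1, is a repressor that rises as many cell types leave the cell cycle and differentiate. Levels were 1.69, 1.37 and 1.41 FPKM in normal liver and 3.84, 3.93 and 3.53 FPKM in vehicle tumors. It was at 0.996, 1.55 and 1.35 FPKM with MLN0128 and at 1.45, 1.6 and 1.38 FPKM with everolimus. All 3 vehicle tumors stood above the other 9 libraries, whose ranges overlapped each other. The rise over normal liver was 0.94 on the log2 scale (SE 0.11, interval 0.69 to 1.19, treat adjusted p = 0.0165), or 2.53-fold between the mean FPKM. The difference from vehicle was -1.06 with MLN0128 (interval -1.31 to -0.81, limma's moderated adjusted p = 0.000137). With everolimus it was -0.94 (interval -1.19 to -0.70, limma's moderated adjusted p = 0.000639).

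The biliary marker Krt19 moved with Mxd1. In the scaling as deposited, the biliary sum of vehicle tumors overlapped that of normal liver, and the macrophage sum was lower than in normal liver. Both readings depend on that scaling, with factors of 0.585 to 0.595 in normal liver and 1.122 to 1.145 in vehicle tumors. Sums under the other scalings are not given. Krt19, a keratin of bile duct cells, averaged 0.400 FPKM in normal liver, 27.7 ± 17.3 FPKM with vehicle (SD, n = 3), 0.493 FPKM with MLN0128 and 0.509 FPKM with everolimus. The drug differences of Krt19 passed 1.5-fold (treat adjusted p = 0.000829 and 0.00115). Of 7 biliary markers 6 were listed, with none at 0 in all libraries, and 5 were tested. Of these 5, 3 were higher past 1.5-fold in vehicle tumors than in normal liver, beside 15.9% of all genes. Against vehicle 2 were lower with MLN0128 (Krt19 and Sox9) and 1 was lower with everolimus (Krt19), beside 1.65% and 0.57% of all genes. The Krt19 call held in 22 of 23 alternatives with each drug, and that of Sox9 with MLN0128 in 8 of 23. These calls and the macrophage counts below are not given without MLN0128 replicates 1 and 2. The 6 listed biliary markers summed to 43.6 to 47.2 FPKM in normal liver, 41.8 to 96.7 FPKM with vehicle, 16.6 to 32.8 FPKM with MLN0128 and 21.2 to 66.2 FPKM with everolimus. All 10 macrophage markers were listed, none at 0 in all libraries, and they summed to 282.5 to 345.2 FPKM in normal liver, 121.3 to 163.8 FPKM with vehicle, 46.2 to 81.3 FPKM with MLN0128 and 73.4 to 186.1 FPKM with everolimus. Of the 10, 1 was higher and 3 lower past 1.5-fold in vehicle tumors than in normal liver, beside 15.9% and 16.9% of all genes. With either drug 0 passed that test. By limma's moderated test 4 were lower with MLN0128 and 1 with everolimus, beside 17.1% and 6.05% of all genes. The part of biliary or macrophage RNA in the Mxd1 differences was not tested.

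The call of Mxd1 past 1.5-fold depended on the libraries used. Against normal liver it missed without normal liver replicate 2 (adjusted p = 0.0545) or vehicle replicate 2 (adjusted p = 0.0507) and passed in the other 21 alternatives. With MLN0128 the treat adjusted p was 0.0406, and over the 23 alternatives it ran from 0.00286 to 0.323 and passed in 6, with 10 of the 12 single libraries ending the call when left out. With everolimus it was 0.312 and passed in 1 of 23. By the moderated test both drug differences passed in 23 of 23 alternatives, including the fit without MLN0128 replicates 1 and 2 (-1.02, adjusted p = 0.00604). Both drugs are compared with the same 3 vehicle libraries, so the pair of differences is not independent. The drugs themselves differed by -0.11 (interval -0.36 to 0.13, moderated adjusted p = 0.572).

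The 3 genes whose log2 values followed Mxd1 most closely over the 12 libraries were Acp7, Gm37867 and Ptgr1 (Pearson r 0.970, 0.969 and 0.964, given as a description). Ptgr1, a prostaglandin reductase, averaged 3.39 FPKM in normal liver, 50.6 FPKM with vehicle, 3.59 FPKM with MLN0128 and 4.44 FPKM with everolimus. Acp7, an acid phosphatase gene, was listed at 0 in every normal liver and averaged 4.55 FPKM with vehicle, 0.0618 FPKM with MLN0128 and 0.164 FPKM with everolimus. The closest genes to Max were Cd3eap, Ubap2l and Usp19 (r 0.991 to 0.993), and those closest to Myc were Rnf186, Phldb2 and Cyp26b1 (r 0.965 to 0.968). For Mycn they were A930036K24Rik, Gm35611 and Cntfr (r 0.977 to 0.978). The 12 points share the contrast between liver and tumor, which 4710 genes follow past 1.5-fold.

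Mxi1, which encodes a repressor also known as MXD2, was at 6.01 to 7.04 FPKM in normal liver, 8.11 to 8.80 FPKM with vehicle, 9.26 to 10.3 FPKM with MLN0128 and 11.1 to 13 FPKM with everolimus. Those 4 ranges did not overlap, in that order. The moderated test passed between vehicle and normal liver (0.30, adjusted p = 0.0182) and between everolimus and vehicle (0.44, adjusted p = 0.0197), and neither passed 1.5-fold. Against normal liver the change did pass 1.5-fold under 2 other scalings, at 1.33 with the same FPKM sum (treat adjusted p = 0.000441) and 1.10 with plain library totals (treat adjusted p = 0.00133), which is 0.53 and 0.47 relative to the median of all genes there. The everolimus difference passed in 18 of 23 alternatives, and that of MLN0128 (0.21, adjusted p = 0.130) in 3.

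Mxd4 was the most abundant MXD transcript in normal liver, at 16.8, 18.3 and 14.1 FPKM. In vehicle tumors it was at 12, 7.49 and 12.6 FPKM, all below normal liver, and the moderated test passed (-0.60, adjusted p = 0.0362), but with libraries set to the same FPKM sum or to plain library totals the sign turned (0.51 and 0.27). Relative to the median change of all genes it was lower under each scaling, by -0.65 in the scaling as deposited, -0.29 at the same FPKM sum and -0.35 with plain totals. MLN0128 libraries (13.6, 17.7 and 12.8 FPKM) lay above vehicle, whereas those with everolimus (12.3, 11.9 and 6.93 FPKM) overlapped it, and neither passed a test.

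Mxd3, a family member that is expressed during S phase in dividing cells, had 0.0391, 0.268 and 0.0405 FPKM in normal liver, on 1, 7 and 1 reads. It was at 1.20, 0.741 and 0.779 FPKM in vehicle tumors. Mxd3 passed the filter only through the tumors, so its call by the moderated test is not read as a result. The 141 summed reads of vehicle tumors against 9 of normal liver give a 7.68-fold higher level (exact interval 3.94 to 17.2, counting error only). MLN0128 libraries spread from 0.198 FPKM in replicate 2 to 0.505 in replicate 1 and 1.69 FPKM in replicate 3, a range that holds all vehicle and everolimus libraries. The same 3 libraries had proliferation marker sums of 146.3, 205.5 and 404.4 FPKM in that order, and the part of cell division in the Mxd3 spread was not tested. With everolimus it was at 0.894, 0.711 and 0.847 FPKM. Mxd3 shares 4.43% of its exon length with the antisense gene Prelid1, and strand-aware counting is not stated.

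Summed over Mxd1, Mxi1, Mxd3 and Mxd4, MXD transcripts averaged 24.6 ± 2.06 FPKM in normal liver, 23.8 ± 2.42 with vehicle, 26.7 ± 1.82 with MLN0128 and 24.5 ± 3.67 with everolimus (SD, n = 3). In the scaling as deposited the sums overlapped between groups, except that all MLN0128 libraries (25.2 to 28.7 FPKM) lay just above the vehicle tumors (21 to 25.2 FPKM). The likeness of normal liver and tumor sums depends on that scaling, with factors of 0.585 to 0.595 in normal liver and 1.122 to 1.145 in vehicle tumors. It is not read as an unchanged MXD total. Mxd1 supplied 5.13% to 6.89% of the MXD transcripts in normal liver and 14.0% to 18.7% in vehicle tumors. Its share was 3.95% to 5.40% with MLN0128 and 5.25% to 6.75% with everolimus. Mxd4 made up 62.4% to 68.5% in normal liver and 35.7% to 50.1% in vehicle tumors, and Mxi1 32.2% to 42% with vehicle and 43.9% to 55.2% with everolimus. Shares are taken within a library and do not depend on the scaling between libraries.

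**Figure D2:**
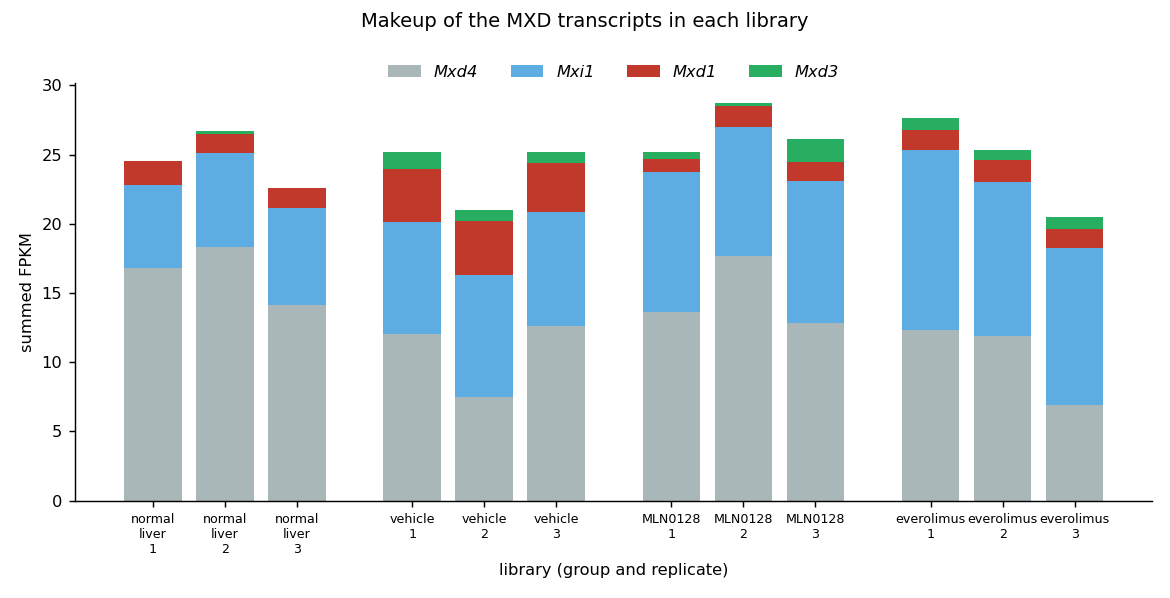
Stacked FPKM of Mxd4, Mxi1, Mxd1 and Mxd3 (vertical axis, linear) in each of the 12 libraries (horizontal axis, by group and replicate). In the scaling as deposited, column heights run from 20.5 to 28.7 FPKM, with the 3 MLN0128 columns just above the 3 vehicle columns, and the Mxd1 layer is thickest in the 3 vehicle tumors.

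Mlx was lower in vehicle tumors than in normal liver and lower again with MLN0128, both by the moderated test, though the first of these turned sign under 2 other scalings. MLX is the partner that ChREBP and MondoA need to bind DNA. Its transcript was found at 22.1, 19.7 and 23.0 FPKM in normal liver, 14.7, 13.2 and 13.9 FPKM with vehicle, 7.54, 8.75 and 8.76 FPKM with MLN0128, and 12.7, 12 and 12.6 FPKM with everolimus. None of the 4 ranges overlapped. Against normal liver the log2 change in vehicle tumors was -0.60 (SE 0.10, moderated adjusted p = 0.000228), which turned to 0.53 and 0.28 with the same FPKM sum and plain totals, and which was -0.27 and -0.34 there relative to the median of all genes.

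With MLN0128 the log2 change of Mlx from vehicle was -0.68 (SE 0.10, interval -0.90 to -0.46, moderated adjusted p = 0.000697), and it passed the moderated test in 23 of 23 alternatives. Without replicates 1 and 2 it was -0.61 (adjusted p = 0.0243). The difference did not pass 1.5-fold (treat adjusted p = 1). Everolimus differed from vehicle by -0.15 (interval -0.37 to 0.07, moderated adjusted p = 0.363), although all 3 libraries lay below the vehicle range. Set against each other, MLN0128 was below everolimus by -0.53 (interval -0.74 to -0.31, moderated adjusted p = 0.0128), in 3 of 3 libraries. Mlx was the 1 member of 10 to pass the moderated test between the drugs, beside 9.53% of all genes (5.54% lower and 3.99% higher), a count near that share. The difference passed in 18 of 23 alternatives and missed without MLN0128 replicates 1 and 2 (-0.46, adjusted p = 0.132). Mlx shares 19.3% of its exon length with the antisense gene Psmc3ip, which averaged 0.377 FPKM in normal liver, 1.67 with vehicle, 1.36 with MLN0128 and 2.13 with everolimus. Where counting ignores strand, reads of the pair cannot be told apart.

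Mlxipl encodes ChREBP, the carbohydrate-responsive factor that is abundant in hepatocytes. It was the highest of the 10 members in normal liver, at 35.4, 36.9 and 53.1 FPKM. Vehicle tumors held 19.9, 18.0 and 16.2 FPKM, each below every normal liver, with a log2 change of -1.15 (SE 0.28, moderated adjusted p = 0.00334, treat adjusted p = 0.0971). With the same FPKM sum the change was 0.01, which is -0.80 relative to the median of all genes. In MLN0128 tumors it was at 64.4, 46.4 and 25.8 FPKM, all above the vehicle range, and in everolimus tumors at 25.0, 23.4 and 16.6 FPKM.

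The change of Mlxipl with MLN0128 was 1.20 (interval 0.58 to 1.82, moderated adjusted p = 0.00796, treat adjusted p = 0.391). The change passed 1.5-fold in 1 of 23 alternatives, that without replicate 3 (treat adjusted p = 0.0297). It came mainly from replicates 1 and 2, which were at 64.4 and 46.4 FPKM, and without both it was 0.50 (adjusted p = 0.251). Against everolimus the difference of 0.97 did not pass (moderated adjusted p = 0.0537), and against vehicle everolimus differed by 0.24 (adjusted p = 0.644). The summed hepatocyte markers were at 2349.9 to 4791.5 FPKM with MLN0128 and 4393.5 to 6642.3 FPKM with vehicle.

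Counted over the members, MLN0128 and vehicle differed past 1.5-fold for 1 of 10 (Mxd1, lower), beside 2.13% of all genes (1.65% lower and 0.479% higher). By the moderated test 4 of 10 differed (Mnt and Mlxipl higher, Mxd1 and Mlx lower), beside 32% of all genes (14.9% higher and 17.1% lower), a share near that of all genes. Without MLN0128 replicates 1 and 2, 2 of 10 passed the moderated test (Mxd1 and Mlx) beside 11.9% of all genes, and Max, Mxi1 and Mxd4 differed by 0.14, 0.27 and 0.27 with no test passed. Libraries did not overlap for 8 of 10 beside 45.5% of all genes, with 6 higher (22.1% of all genes) and 2 lower (23.4%). Everolimus and vehicle differed past 1.5-fold for 0 of 10 by limma's treat test, beside 0.604% of all genes (0.0347% higher and 0.57% lower). At an unadjusted treat p under 0.05 this was 1 of 10 (Mxd1), as it was by voom on recovered reads. By limma's moderated test 2 of 10 differed (Mxd1 lower, Mxi1 higher), beside 9.83% (6.05% lower and 3.78% higher). Everolimus and vehicle libraries did not overlap for 4 of 10 beside 32.4% of all genes, with 2 higher (17.7%) and 2 lower (14.8%). Between the drugs 0 of 10 passed 1.5-fold in limma's treat test, with 0 at an unadjusted p under 0.05 and 0 by voom, beside 0.0417% of all genes (0.00695% higher and 0.0347% lower). Their libraries did not overlap for 4 of 10 beside 27.7% of all genes, with 2 higher (12.5%) and 2 lower (15.2%).

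**Figure D3:**
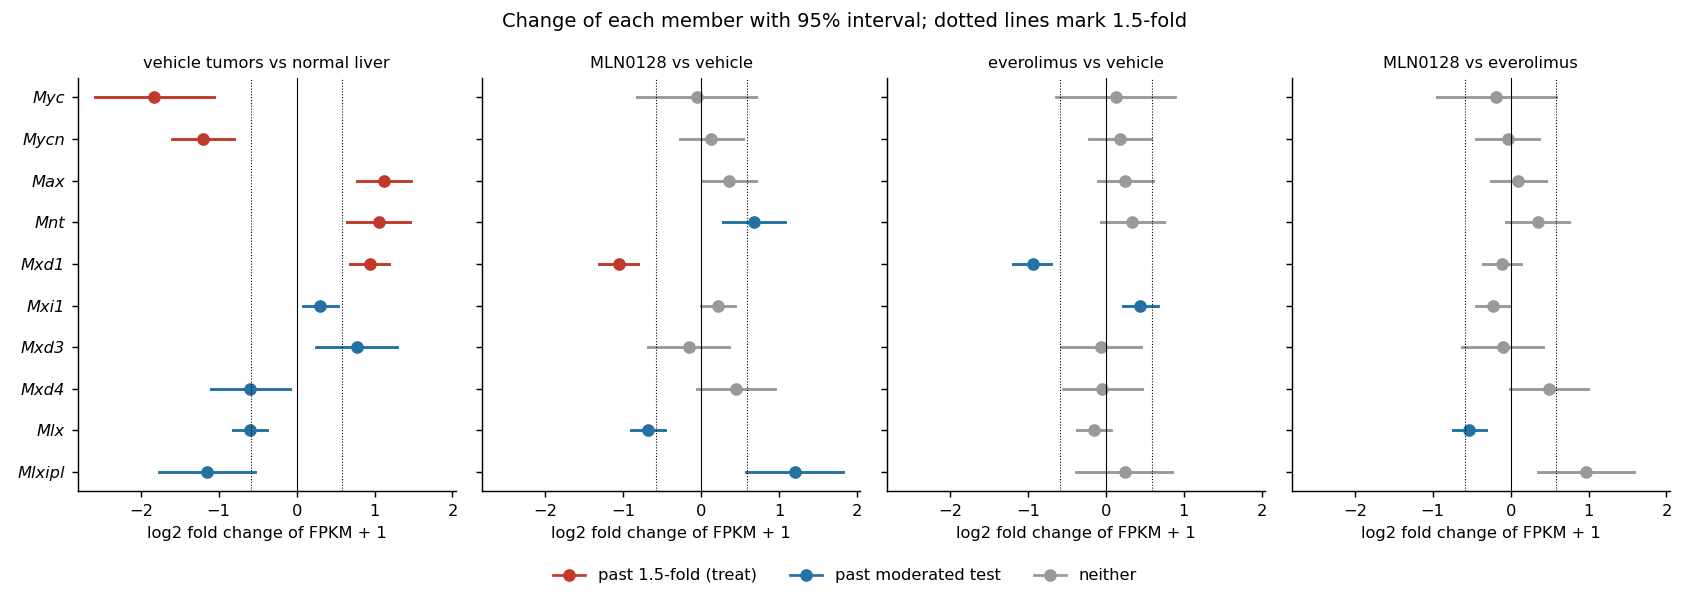
Log2 fold change of FPKM + 1 (horizontal axes) with its 95% interval for the 10 members in 4 comparisons, with red for genes past the 1.5-fold test, blue for those past the moderated test alone and grey for neither. Dotted lines mark 1.5-fold; 5 members are red in vehicle tumors against normal liver, among them Mycn, which passed the filter only through normal liver, and Mxd1 alone is red with MLN0128.

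The order of the members by FPKM also differed between groups. In normal liver Mlxipl, Mlx and Mxd4 led, each apart from the next, and Max (8.53), Myc (7.54) and Mxi1 (6.61) followed with overlapping libraries. In vehicle tumors Max (19.6) and Mlxipl (18.0) led with overlapping libraries, followed by Mlx, and then by Mxd4 and Mxi1, whose libraries overlapped. Myc (1.25) overlapped Mxd3 (0.907) there, and Mycn was last in every tumor group. With MLN0128 Mlxipl (45.5) overlapped Max (25.5), and Mlx (8.35) had a lower mean than Mnt (10.6) and Mxi1 (9.89), with libraries apart from those of Mxi1.

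Ratios within a library do not depend on the scaling between libraries. The Myc to Max ratio averaged -0.31 ± 0.95 on the log2 scale in normal liver and -4.02 ± 0.48 in vehicle tumors (SD, n = 3), 13.1-fold lower. MXD transcripts relative to Max were 2.41-fold lower. Transcripts of the antagonists (the MXD genes and Mnt) relative to listed Myc and Mycn were 7.59-fold higher. Each of these 3 ratios separated all normal livers from all vehicle tumors, with an exact two-sided permutation p of 0.1, which is the smallest that 3 against 3 libraries allow, and 0.233 adjusted over 28 ratio tests. Mnt to Max differed by 1.09-fold, with overlapping libraries (exact permutation p = 0.4). Whether reads of the introduced c-MYC enter the ratios that use Myc is not stated in the sources used here.

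On the MLX side, the ratio of Mlx to Max was 3.60-fold lower in vehicle tumors than in normal liver, a further 2.16-fold lower with MLN0128 than with vehicle, and 1.34-fold lower with everolimus. All 4 groups were apart, and the drugs differed from each other by 1.61-fold. Mlxipl to Mlx was 3.96-fold higher with MLN0128 than with vehicle and 2.98-fold higher than with everolimus, again with no overlap. Mnt to Max was 1.32-fold higher with MLN0128 than with vehicle. Each exact permutation p was 0.1 (0.233 adjusted). Without MLN0128 replicates 1 and 2, with 1 library left and so no test, Mlxipl to Mlx was 2.28-fold higher than with vehicle and 1.72-fold higher than with everolimus. Mlx to Max was then 1.75-fold lower than with vehicle and 1.31-fold lower than with everolimus, and Mnt to Max 1.13-fold higher than with vehicle. The remaining library still lay outside the vehicle range for these 3 ratios.

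**Figure D4:**
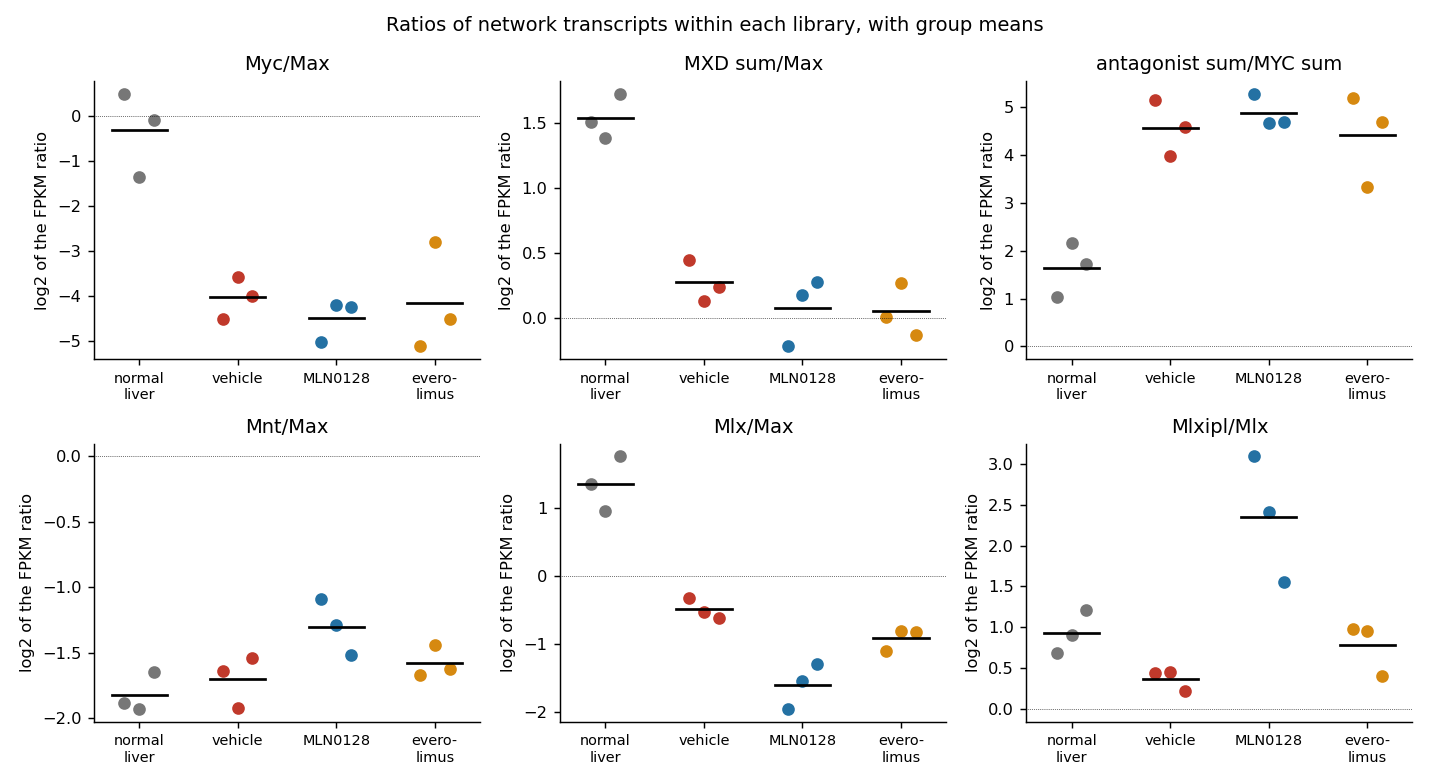
Log2 ratios of FPKM within each library (vertical axes) for 6 pairs of network transcripts in the 4 groups, with a point per library and a bar at the group mean (n = 3). The MXD sum is Mxd1, Mxi1, Mxd3 and Mxd4, the antagonist sum adds Mnt, and the MYC sum is Myc and Mycn; Mlx/Max separates all 4 groups, from a mean of 1.36 in normal liver to -1.60 with MLN0128.

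Other genes of the extended network were Mlxip, Mga, Tfap4, Mycl, Bmyc, Usf1, Usf2 and Zbtb17. In vehicle tumors against normal liver 2 of these 8 rose past 1.5-fold and 0 fell, beside 15.9% of all genes higher and 16.9% lower. Mlxip, which encodes MondoA, averaged 1.67 ± 0.258 FPKM in normal liver and 6.78 ± 0.947 FPKM in vehicle tumors (1.54, treat adjusted p = 9.15e-05), and was at 5.58 and 5.95 FPKM with MLN0128 and everolimus. Tfap4, the MYC-induced factor AP4, averaged 2.08 FPKM in normal liver against 6.20 FPKM with vehicle (1.25, treat adjusted p = 0.00618), and at 12.4 and 11.2 FPKM with MLN0128 and everolimus. Mga, which encodes a large MAX-binding repressor, averaged 2.92, 5.83, 9.67 and 7.92 FPKM in the same order of groups.

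Bmyc, a short rodent MYC relative without the DNA-binding region, was at 0.190, 0.241 and 0.175 FPKM with vehicle (4 to 5 reads) and at 4.05, 2.63 and 1.70 FPKM with MLN0128. Its summed reads, 208 and 13, correspond to a 14.3-fold higher level (exact interval 8.18 to 27.3, for counting error only and not the spread between mice). The log2 change of 1.61 passed 1.5-fold (treat adjusted p = 0.0432). That call was lost when any vehicle library, MLN0128 replicate 1 or 2, normal liver replicate 1 or everolimus replicate 1 was left out. Without both MLN0128 replicates 1 and 2 the change was 1.17 (treat adjusted p = 0.843, moderated adjusted p = 0.0378). In normal liver it was at 1.70, 1.01 and 2.34 FPKM. The antisense gene A230005M16Rik covers 62.8% of its exon length, so its reads are uncertain where strand was not used. Mycl averaged 2.33 FPKM in normal liver and 1.18, 0.952 and 1.44 FPKM in vehicle, MLN0128 and everolimus tumors. The E box factors Usf1 and Usf2 averaged 8.82 and 22.4 FPKM in normal liver and 9.83 and 14.3 FPKM with vehicle. Zbtb17, which encodes the MYC partner MIZ1, averaged 3.53 and 6.28 FPKM.

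MYC-activated genes were higher in the vehicle tumors, in which listed mouse Myc was lower. Of 40 genes listed as activated by MYC, 29 rose past 1.5-fold and 1 fell, beside 15.9% of all genes higher and 16.9% lower, with a median log2 change of 1.85 beside 0.06 over all genes. Mthfd2, a mitochondrial folate enzyme, rose by 4.22 from 2.49 to 53.5 FPKM, Tfrc, the transferrin receptor, by 3.17, and Rcc1, a regulator of Ran, by 3.08. Paics, an enzyme of purine synthesis, was the 1 that fell (-1.26), a call that held in 21 of 23 alternatives. Proliferation markers moved with them, 12 of 12 higher, and the part of cell division in these changes was not tested.

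Of 14 genes listed as repressed by MYC, 5 rose and 4 fell past 1.5-fold, beside 15.9% and 16.9% of all genes, with a median of 0.64 beside 0.06. The cell cycle inhibitor Cdkn1a rose by 5.75, from 0.655 to 88.2 FPKM, Ndrg1 by 4.71 and Gadd45b by 3.78, whereas Gadd45g (-3.05), Cebpa (-2.99) and Ndrg2 (-2.39) fell. Cebpa, a hepatocyte transcription factor, fell along with 10 of 11 hepatocyte markers.

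Genes listed as ChREBP or MondoA targets were mostly lower in vehicle tumors, 11 lower and 1 higher of 25 past 1.5-fold (median -1.03), beside 16.9% of all genes lower and 15.9% higher. Cyp2c54, a cytochrome P450, fell by 8.22 on the log2 scale, as did Thrsp, a lipogenic regulator (-5.23), and Scd1, a fatty acid desaturase (-4.83). Arrdc4, an arrestin-domain gene that MondoA activates, was the 1 that rose (1.40), a call lost without normal liver replicate 1 or vehicle replicate 2. Of 11 hepatocyte markers 10 fell in the same libraries (median -2.92), and the part of lost hepatocyte RNA in these values was not tested.

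The counts of MYC cofactors are to be read beside 15.9% of all genes higher and 16.9% lower past 1.5-fold. Of 14 MYC coactivator genes 5 rose and 0 fell, among them Ruvbl2 (2.77), Ruvbl1 (2.11) and Kat2a (1.61), which encode subunits of chromatin remodelling and acetyltransferase complexes. Of 15 genes for corepressor subunits that MXD and MNT recruit, 2 rose (Rbbp7 2.82, Sap30 1.59) and 1 fell (Sin3b -0.86, to 5.07 FPKM). The Sin3b change turned to 0.18 with the same FPKM sum, and its call was lost in most alternatives. Of 16 genes that act on MYC protein stability 6 rose and 1 fell. The mitotic kinases Plk1 (3.69) and Aurka (3.50) and the PP2A inhibitor Cip2a (2.39) led the rise. The PP2A subunit Ppp2r5a fell (-1.24), a call that held in 21 of 23 alternatives.

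With MLN0128 few of the same genes passed 1.5-fold. Mthfd2 was at 5.29 ± 3.35 FPKM, down from 53.5 ± 6.07 with vehicle (-3.24, treat adjusted p = 0.0108), and Ccnd2, which encodes cyclin D2, fell by 1.83 on the log2 scale. Without MLN0128 replicates 1 and 2 neither call held, nor did those of Ndrg1 and Fgf21 below. Mthfd2 and Ccnd2 are 2 of the 40 MYC-activated genes, whose median was -0.08, beside 1.65% of all genes lower past 1.5-fold. By the moderated test 7 of the 40 were higher and 10 lower with MLN0128 than with vehicle, beside 14.9% and 17.1% of all genes. Against everolimus 0 were higher and 8 lower with MLN0128, beside 3.99% and 5.54% of all genes. These moderated counts are not given without MLN0128 replicates 1 and 2. Of the repressed list Ndrg1 fell (-2.21), and of the ChREBP and MondoA list Fgf21, a hepatokine, fell from 11.1 to 0.573 FPKM (-2.95). With everolimus 0 genes of these lists or of the cofactor lists passed 1.5-fold in limma's treat test, beside 0.604% of all genes, and by the moderated test 3 of the 40 MYC-activated genes were higher and 1 lower, beside 9.83% of all genes (3.78% higher and 6.05% lower).

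**Figure D5:**
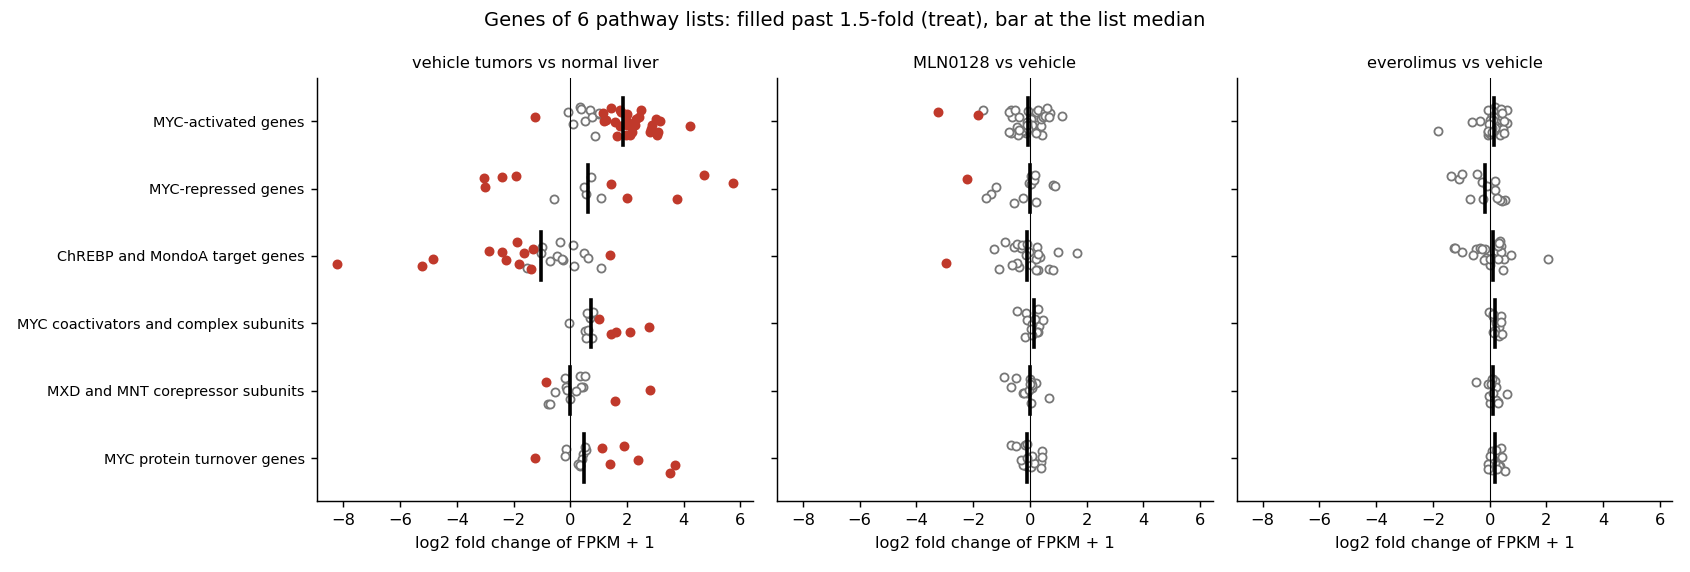
Log2 fold change of FPKM + 1 (horizontal axes) of each gene of 6 pathway lists (rows) in vehicle tumors against normal liver and in each drug against vehicle; filled points passed the 1.5-fold test and black bars are list medians. MYC-activated genes centre on 1.85 in vehicle tumors and on -0.08 and 0.15 with MLN0128 and everolimus.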

How the data were processed

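The deposited values are FPKM that the authors made for 12 libraries: RNA was sequenced by Novogene, reads were counted per Ensembl gene, and genes were converted to Entrez identifiers with symbols from org.Mm.eg.db. The authors called genes with edgeR's glmTreat. The submitters' processing notes name GRCm38 and FastQC 0.11.7; the aligner and the strand setting are not given in the sources used here.

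Here, log2(FPKM + 1) of the genes that reached 0.5 FPKM in 3 or more libraries (14397 genes) was fitted over all 12 libraries together, by limma 3.58.1 (R 4.3.3) and with an intensity trend. Vehicle tumors were compared with normal liver, both drugs with vehicle, and the drugs with each other, each by treat against 1.5-fold and by the moderated test, with Benjamini-Hochberg adjustment over all genes. FPKM multiplied by exon length (GENCODE M21, 16890 symbols matched) fell within 0.1 of whole reads for 98.2% to 98.8% of values under 20 reads, where chance gives 20.0%, which gave the depths. These also showed that the deposited FPKM carry a scaling between libraries, with factors of 0.585 to 0.595 in normal liver and 1.10 to 1.37 in tumors. Another 22 symbols were listed as dates and went unmatched. Intervals on reads are exact (Clopper-Pearson) at 95.0%.

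All 10 members were named in every comparison, other network genes by their levels, and up to 3 called genes in each direction from every further list (2 in drug comparisons). The genes most like each called member were named too, except those of Mnt, which are not reported here. The members and lists were chosen with earlier results of these data known. Each library is counted as 1 mouse, as the study describes it. Ratios within a library were tested by exact permutation. Alternatives changed the pseudocount (0.1), filter, scaling, test, libraries in the model, replicate block and each library left out, and added limma's voom on recovered reads. Scripts were tested on simulated data. Python 3.11.15, pandas 2.3.3, scipy 1.17.1 and matplotlib 3.10.9 were used.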

Additional observations from a re-analysis of the deposited data

Results flagged for a closer look

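The direct comparison of the drugs tests the difference between their effects, because both are set against the same vehicle libraries. It passed limma's moderated test for 1 of 10 members and 1 of 8 further genes of the network. These counts are near the share of all genes, 9.53%. Mlx was lower with MLN0128 than with everolimus by -0.53 on the log2 scale (adjusted p = 0.0128), lower in 3 of 3 libraries. Bmyc was higher with MLN0128 by 1.25 (adjusted p = 0.0148), higher in 3 of 3 libraries, on 40 to 113 reads with MLN0128 and 4 to 29 reads with everolimus. Without both MLN0128 replicates 1 and 2 neither passed, with -0.46 for Mlx (moderated adjusted p = 0.132) and 0.81 for Bmyc (moderated adjusted p = 0.201). Neither passed the test against 1.5-fold (treat adjusted p = 1 for both).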

How the results depend on the processing

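Counts of genes past 1.5-fold depended most on the test. With the moderated test in place of treat, vehicle tumors against normal liver gave 10 members and 9929 genes, and 9 members and 7613 genes with a fold above 1.5 added. The same pair gave 4 and 4606, then 4 and 2775, for MLN0128 against vehicle. It gave 2 and 1415, then 1 and 967, for everolimus against vehicle, and 1 and 1372, then 0 and 763, between the drugs. With the same FPKM sum 7071 genes passed in vehicle tumors against normal liver. For MLN0128 against vehicle, 580 genes passed with a pseudocount of 0.1, 771 by voom, 173 with only the 2 groups and 35 without both MLN0128 replicates 1 and 2. The 1 member became 0 with no filter, same FPKM sum, median of ratios, plain library totals, only the 2 groups, the replicate block and without both MLN0128 replicates. For everolimus against vehicle, 148 genes passed with the pseudocount, 170 and 1 member by voom, and 38 with only the 2 groups. Between the drugs 13 passed by voom and 3 with only the 2 groups.

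Leaving out single libraries gave 2 to 6 members in vehicle tumors against normal liver (2 without normal liver replicate 2) and 0 to 1 with MLN0128. Without MLN0128 replicate 3 that 1 member was Mlxipl, higher, in place of Mxd1. It gave 122 to 406 genes for MLN0128 against vehicle (lowest without MLN0128 replicate 1), 45 to 109 for everolimus (lowest without vehicle replicate 3), and 2 to 18 between the drugs (lowest without everolimus replicate 1, highest without MLN0128 replicate 3).

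Signs of small changes turned. In vehicle tumors against normal liver, the same FPKM sum gave 0.51 for Mxd4, 0.53 for Mlx, 0.01 for Mlxipl and 0.18 for Sin3b, and plain totals gave 0.27 for Mxd4 and 0.28 for Mlx, where the shift of the median of all genes exceeds these values. With MLN0128 against vehicle, Myc became 0.08 (same FPKM sum) and 0.02 (plain totals), and -0.21 to 0.06 with single libraries left out, and Mxd3 ran from -0.50 (without MLN0128 replicate 3) to 0.09 (without replicate 2) and was 0.50 without both replicates. Left-out libraries gave Myc -0.23 to 0.34, Mxd3 -0.12 to 0.04 and Mxd4 -0.26 to 0.19 for everolimus. Between the drugs they gave Myc -0.40 to 0.18, Mycn -0.10 to 0.01, Max 0.00 to 0.21 and Mxd3 -0.44 to 0.15. There the same FPKM sum gave Mxd1 0.03, Mxd3 0.02 and Mxi1 0.00, and leaving out both MLN0128 replicates gave Max -0.12, Mxd3 0.57 and Mnt -0.06. Ratios with single libraries left out ran from -0.78 to 0.37 (Myc/Max) for everolimus against vehicle and from -0.83 to 0.32 between the drugs. MXD sum/Max ran from -0.07 to 0.18 between the drugs. Antagonist/MYC sum ran from -0.56 to 0.37 with everolimus and from -0.07 to 0.86 between the drugs, and Mxd3/Mxd4 from -0.37 to 0.15 with everolimus. Without both MLN0128 replicates, Mxd3/Mxd4 was 0.64 against vehicle and 0.71 against everolimus. Where no cause is named it was not tested.

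Replicate numbers did not pair the samples. Same-numbered samples correlated in their deviations from -0.289 to 0.148 (18 pairs, 1 over 0.1). With the replicate block 4, 0, 0 and 0 members passed in the 4 comparisons, and 4564, 232, 80 and 6 genes.

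With 3 mice a group, exact tests of ratios cannot go below 0.1, and Mycn, Mxd3 and Bmyc rest on few reads in their lowest groups.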

Other observations

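The mouse gene Mcl1, whose product or its human counterpart was introduced together with c-MYC, was listed at 50.2 to 53.9 FPKM in normal liver, 143 to 211 FPKM with vehicle, 461 to 1120 FPKM with MLN0128 and 235 to 354 FPKM with everolimus. The 4 ranges did not overlap. MLN0128 replicates 1 and 2, which carry Xist, were at 1120 and 992 FPKM, and replicate 3 was at 461 FPKM. Whether reads from the introduced sequence are counted in these values is not stated in the sources used here.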
